A study of Mus musculus with 10 samples.

Results

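Wdfy1 and 9 genes of Toll-like receptor signalling were followed in the spleen RNA of mice with KRN serum-induced arthritis (KSIA), 10 of the 54532 genes of the table. The genes are the receptors Tlr2, Tlr3, Tlr4, Tlr7 and Tlr9, the adaptors Myd88, Ticam1 and Ticam2, the transcription factor Irf3, and Wdfy1. Wdfy1 was chosen by its own difference between DUSP6 KO and WT spleens in these libraries, so its values are a description. The intervals and p printed for it are part of that description and are not a test of it. The other 9 genes were taken for their function beside Wdfy1. All 10 genes passed the filter on low values, a mean of at least 0.1 FPKM over the libraries, which 21296 genes passed. FPKM is the number of sequenced fragments of a gene per kilobase of its length, scaled to the depth of the library.

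RNA was sequenced from 5 spleens of DUSP6 KO mice (allele Dusp6tm1Jmol) and 5 spleens of WT mice, which the study describes as C57BL/6J with intact DUSP6 and IL10. Both strains came from a supplier and were 8 to 12 weeks old, and no source states that they were littermates, so the deleted gene and any other difference between the strains cannot be told apart. All 10 mice received 100 µL of arthritogenic serum on days 0 and 2 and were sampled on day 9. There were no mice without serum, so the comparison is between genotypes within arthritis. The labels call the genotype "DUSP6 Knockdown", and libraries are named here by genotype and the number in the label.

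Toll-like receptors are sensors of microbial products and of nucleic acids. TLR2 and TLR4 sit at the cell surface and recognise bacterial lipoproteins and lipopolysaccharide, while TLR3, TLR7 and TLR9 sit in endosomes and recognise double-stranded RNA, single-stranded RNA and unmethylated CpG DNA. Most of them signal through the adaptor MyD88 to NF-kB, whereas TLR3 signals through the adaptor TRIF (gene Ticam1) to IRF3 and type I interferon. TLR4 uses both routes, with TRAM (gene Ticam2) as the bridge to TRIF. WDFY1 is an endosomal protein with WD repeats and a FYVE domain, a fold that binds a phosphoinositide of early endosomes, and it is known for helping to recruit TRIF to TLR3 and TLR4. In spleen, B cells, macrophages and dendritic cells are the best known users of these receptors.

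The deleted gene checked the labels. Dusp6, which encodes a phosphatase of ERK, was at 0.308 to 0.624 FPKM in the DUSP6 KO libraries and at 16.6 to 24.0 FPKM in the WT libraries. The DUSP6 KO libraries held 14990474 to 19822673 reads and the WT libraries 15611652 to 18422147. No library exceeded 0.0206 FPKM of Xist or fell under 14.4 FPKM of Ddx3y, a gene of the Y chromosome, so X-linked Tlr7 was compared between males. In WT 67 and WT 65, 8 exocrine pancreas genes summed to 14701 and 180 FPKM, against 9.52 to 26.2 FPKM in the other 8 libraries, and the counts of called genes and the log2 fold changes of the 10 genes were also computed without both libraries. Haemoglobin took 1.74 to 7.56% of reads. Among the 21296 genes tested with limma, 8 were called higher in DUSP6 KO at an adjusted p of 0.05 or less (0.0376%) and 7 lower (0.0329%).

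Wdfy1 RNA was higher in DUSP6 KO spleens, at about double the WT level. Wdfy1 (ENSMUSG00000073643) lies on the minus strand of chromosome 1, at chr1:79702262-79776143 on GRCm38, with 17 merged exons of 6488 bases. Its level was 5.44, 4.53, 5.56, 5.04 and 5.29 FPKM in DUSP6 KO 26, 21, 73, 01 and 03, and 1.96, 3.16, 2.90, 2.35 and 2.69 FPKM in WT 65, 67, 73, 77 and 83. The groups did not overlap: the lowest DUSP6 KO spleen (KO 21) stood above the highest WT spleen (WT 67). These levels came from 529 to 708 reads per DUSP6 KO library and 217 to 392 reads per WT library, so counting error was small beside the gap.

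Wdfy1 averaged 5.17 ± 0.41 FPKM in the DUSP6 KO spleens against 2.61 ± 0.47 FPKM in the WT spleens (SD, n = 5 per group), a ratio of 1.98. On the scale of log2(FPKM + 0.1), used for every log2 fold change here, the difference was 0.97 with a standard error of 0.13 and a 95% interval of 0.68 to 1.27. The limma p adjusted over all genes was 0.030, which comes from the contrast that selected Wdfy1 and supports nothing further. Of all genes tested, 0.549% had 5 DUSP6 KO values above all 5 WT values and 0.563% the reverse. A log2 fold change of this size or larger, in either direction, was found in 5.75% of the genes. The adjusted p rose above 0.05 when any of 7 libraries was left out, namely DUSP6 KO 26 (0.098), 73 (0.074), 01 (0.078) and 03 (0.12) and WT 73 (0.062), 77 (0.095) and 83 (0.097), while the log2 fold change stayed between 0.88 and 1.05 over all 10 omissions.

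**Figure D1:**
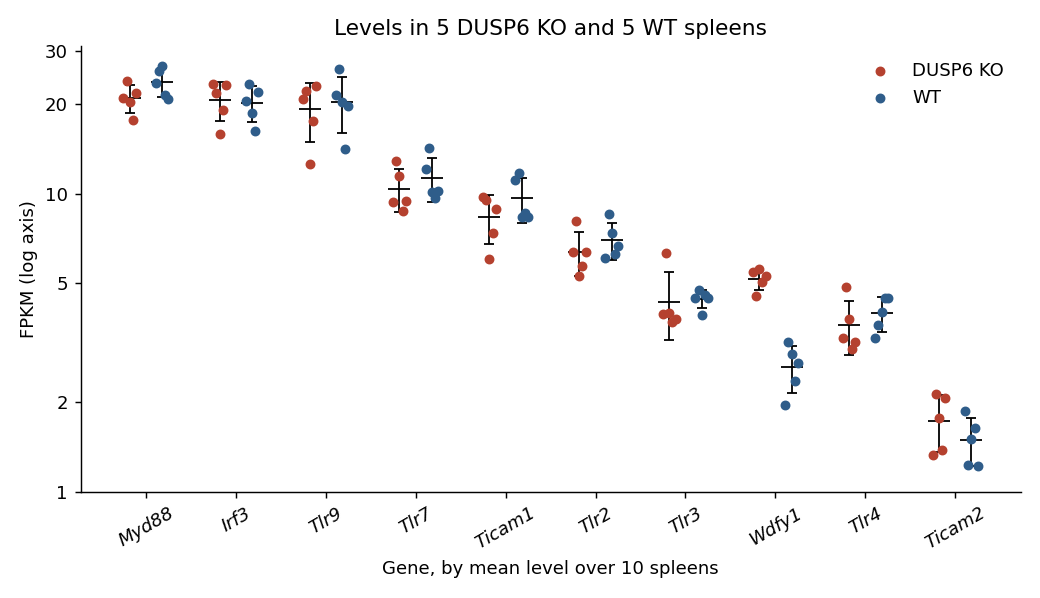
Level of each gene in FPKM (log axis) in 5 DUSP6 KO (red) and 5 WT (blue) spleens, ordered by the mean over all 10; points are spleens, and black bars are the mean and SD of each group. Wdfy1 sits at 4.53 to 5.56 FPKM in DUSP6 KO and at 1.96 to 3.16 FPKM in WT, and the groups overlap for the other 9 genes.

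None of the 5 receptors was called as higher or lower in DUSP6 KO. None passed an unadjusted p of 0.05, a line that 2.62% of all genes passed as higher and 3.03% as lower, and the 2 groups overlapped for each. All 5 had a slightly negative log2 fold change, from -0.14 to -0.055, beside a median of -0.0046 over all genes. The receptors share the libraries, so their common sign is not 5 separate observations.

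Tlr3 (chr8:45395665-45411080, minus strand), the double-stranded RNA sensor that WDFY1 is known to serve, was at 3.93, 6.31, 3.98, 3.71 and 3.79 FPKM in DUSP6 KO 26, 21, 73, 01 and 03, and at 4.46, 4.74, 3.92, 4.57 and 4.46 FPKM in WT 65, 67, 73, 77 and 83. KO 21 was the highest of all 10 spleens, while the other 4 DUSP6 KO spleens lay below 4 of the 5 WT spleens. In the fit its log2 fold change was -0.055 (SE 0.15, 95% interval -0.38 to 0.27, limma, adjusted p = 0.99), and it ran from -0.19 without KO 21 to -0.0065 without KO 01. Of the Tlr3 exon bases, 7.32% also belong to Gm45542 on the opposite strand, and the sources do not say whether counting was by strand.

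Tlr4 (chr4:66827584-66930284, plus strand), the lipopolysaccharide receptor and the other partner of WDFY1, was at 3.28, 4.86, 3.78, 3.01 and 3.17 FPKM in DUSP6 KO and at 3.27, 3.61, 3.997, 4.47 and 4.45 FPKM in WT, in the same order of animals. Again KO 21 was highest, and 2 DUSP6 KO spleens lay below all of the WT spleens. The difference came to a log2 fold change of -0.14 (SE 0.15, 95% interval -0.46 to 0.19, limma, adjusted p = 0.99). With a library left out it ran from -0.25 (without KO 21) to -0.078 (without KO 01), and it was -0.26 without WT 65 and WT 67.

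Tlr2 (chr3:83836272-83841767, minus strand), the lipoprotein receptor, was at 6.37, 8.09, 5.30, 5.73 and 6.38 FPKM in DUSP6 KO and at 6.07, 8.53, 7.35, 6.29 and 6.65 FPKM in WT. KO 21 and WT 67 were the highest of their groups. For Tlr2 the log2 fold change was -0.13 (SE 0.13, 95% interval -0.42 to 0.16, limma, adjusted p = 0.98), and it ran from -0.22 without KO 21 to -0.058 without WT 67. In KO 21, Tlr2, Tlr3, Tlr4 and Tlr7 were all at the top of the DUSP6 KO group. In that spleen the summed monocyte and macrophage markers were also highest, at 2359 FPKM against 1749 to 2057 FPKM in the other DUSP6 KO spleens. Most of this sum is Lyz2, which averaged 1476 FPKM in DUSP6 KO, so the sum says little about the other markers of the list. The summed stromal markers were highest there too, at 285 FPKM against 72.0 to 108 FPKM. The part of cell composition in these values was not tested, and in whole spleen fewer cells of a type and less RNA per cell cannot be told apart.

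Tlr7 (chrX:167304929-167330558, minus strand), the single-stranded RNA sensor, was at 9.37, 12.9, 11.5, 8.75 and 9.44 FPKM in DUSP6 KO and at 12.1, 14.2, 10.1, 9.64 and 10.2 FPKM in WT. The highest WT values came from WT 65 and WT 67, the libraries with pancreas transcripts. The fitted log2 fold change was -0.11 (SE 0.14, 95% interval -0.42 to 0.19, limma, adjusted p = 0.99), and it ran from -0.20 without KO 21 to -0.027 without WT 67, and was 0.042 without WT 65 and WT 67.

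Tlr9 (chr9:106222598-106226883, plus strand), the CpG DNA sensor abundant in B cells, was at 20.8, 22.1, 12.5, 17.5 and 23.0 FPKM in DUSP6 KO and at 21.4, 26.2, 20.3, 14.1 and 19.6 FPKM in WT. KO 73 and WT 77 were far below the rest of their groups. For Tlr9 the log2 fold change was -0.089 (SE 0.19, 95% interval -0.52 to 0.34, limma, adjusted p = 0.99), and its sign changed with 1 library, being 0.056 without KO 73 and 0.0099 without WT 67. Across libraries Tlr9 went with the summed markers of B cells, which were lowest in KO 73 (684 FPKM) and WT 77 (776 FPKM) and highest in WT 67 (1746 FPKM), where Tlr9 was highest too. The groups' B cell sums ran from 684 to 1356 FPKM in DUSP6 KO and from 776 to 1746 FPKM in WT, and their part in the Tlr9 values was not tested.

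**Figure D2:**
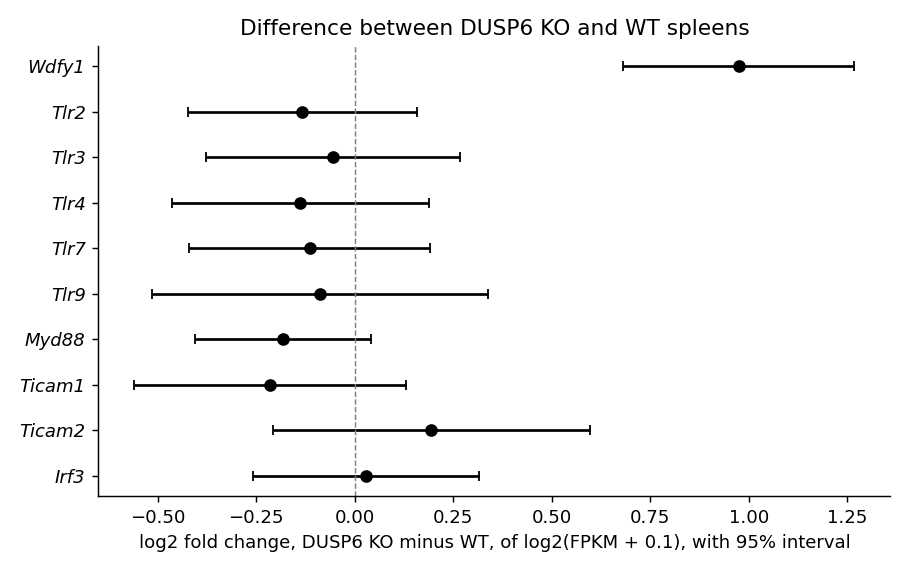
Log2 fold change of each gene, DUSP6 KO minus WT, on the scale of log2(FPKM + 0.1), with its 95% interval from limma (5 spleens a group). Wdfy1, which was chosen by this contrast, is at 0.97, and the intervals of the other 9 genes all include 0.

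The adaptors and Irf3 did not pass the test either. Myd88 (chr9:119335934-119341411, minus strand), the adaptor of every Toll-like receptor but TLR3, was at 20.9, 23.9, 20.2, 17.6 and 21.7 FPKM in DUSP6 KO and at 23.5, 25.8, 26.8, 21.4 and 20.8 FPKM in WT. Of the 9 genes it had the narrowest interval, and 2 of the DUSP6 KO spleens lay below all WT spleens. The difference was a log2 fold change of -0.18 (SE 0.10, 95% interval -0.40 to 0.042, limma, adjusted p = 0.94). Of its exon bases, 11.3% also belong to Acaa1a on the opposite strand.

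Ticam1 (chr17:56269319-56276786, minus strand), which encodes the TRIF that WDFY1 recruits, was at 9.73, 9.54, 6.04, 7.39 and 8.91 FPKM in DUSP6 KO and at 11.1, 11.7, 8.37, 8.60 and 8.34 FPKM in WT. Its lowest value was in KO 73 and its highest values in WT 65 and WT 67. For Ticam1 the log2 fold change was -0.21 (SE 0.16, 95% interval -0.56 to 0.13, limma, adjusted p = 0.97), and it ran from -0.28 without KO 26 to -0.11 without KO 73, and was -0.042 without WT 65 and WT 67.

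Ticam2 (chr18:46559155-46574533, minus strand), which encodes the bridge TRAM, was the lowest of the 10 genes, at 1.32, 2.12, 1.77, 1.37 and 2.06 FPKM in DUSP6 KO and at 1.86, 1.23, 1.51, 1.64 and 1.22 FPKM in WT. The groups overlapped, with 2 DUSP6 KO spleens above all WT spleens, and the values rest on 86 to 162 reads per library. The fit gave a log2 fold change of 0.19 (SE 0.18, 95% interval -0.21 to 0.60, limma, adjusted p = 0.98), which ran from 0.12 without KO 21 to 0.28 without KO 26. In release M21 of GENCODE it shares 838 exon bases with Tmed7 on the same strand, where reads cannot be told apart by strand. Its M21 model differs from the counted one (5792 exon bases against 3928), so whether the counted model has this overlap is not known.

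Irf3 (chr7:44997648-45002848, plus strand), the factor that the TRIF route activates, was at 23.2, 21.7, 15.9, 19.0 and 23.1 FPKM in DUSP6 KO and at 20.53, 23.3, 18.7, 16.2 and 21.9 FPKM in WT. KO 73 and WT 77, the spleens lowest in Tlr9 and B cell markers, were also lowest in Irf3. For Irf3 the log2 fold change was 0.029 (SE 0.13, 95% interval -0.26 to 0.32, limma, adjusted p = 0.996), and it was -0.046 without WT 77, -0.018 without KO 26 and -0.016 without KO 03.

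**Figure D3:**
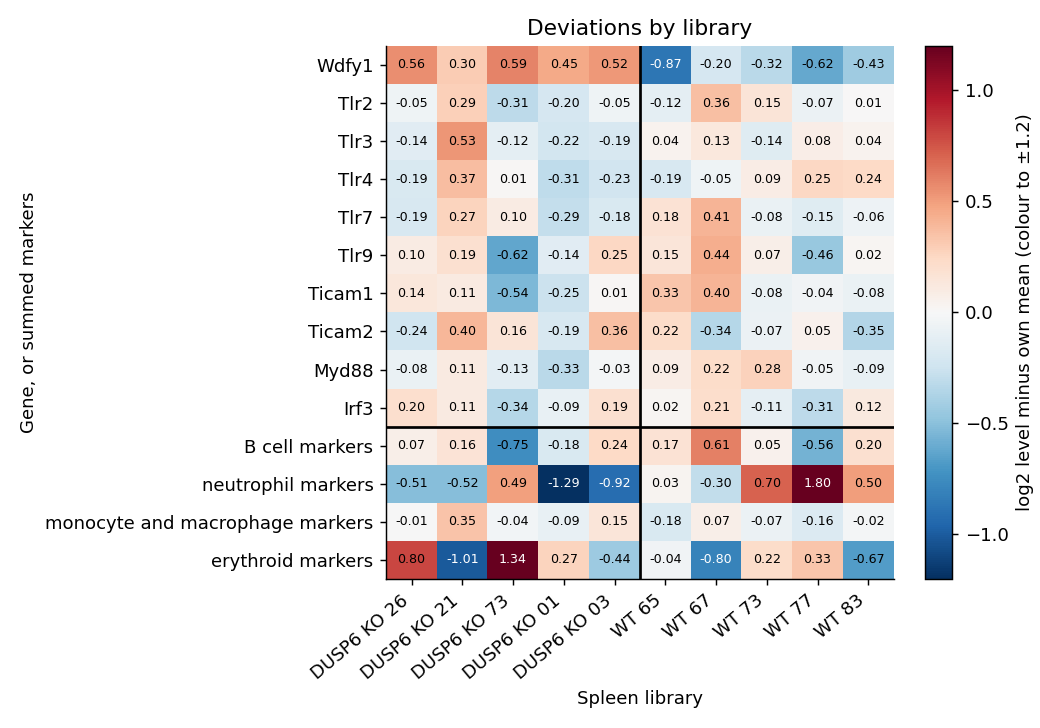
Each cell is the log2 level of a gene, or of the summed FPKM of a marker list (lower 4 rows), minus its own mean over the 10 libraries, in log2 units; columns are libraries, DUSP6 KO left of the line and WT right of it. Wdfy1 is above its mean in all 5 DUSP6 KO libraries and below it in all 5 WT libraries, while Tlr9, Irf3 and the B cell markers are all lowest in KO 73 and WT 77 within their groups.

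Wdfy1 was also set against its partners within each library. The ratio of Wdfy1 to Tlr3 FPKM was 0.717 to 1.40 (median 1.38) in DUSP6 KO and 0.439 to 0.739 (median 0.604) in WT, with KO 21 as the low DUSP6 KO value. The ratio to Tlr4 was 0.931 to 1.67 (median 1.66) against 0.525 to 0.876 (median 0.605), and the ratio to Ticam1 was 0.474 to 0.921 (median 0.594) against 0.176 to 0.346 (median 0.273). These ratios contain the difference by which Wdfy1 was chosen and are given without a test.

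By mean FPKM over the 10 spleens, which is a level per length, the order was Myd88 (22.3), Irf3 (20.4), Tlr9 (19.8), Tlr7 (10.8), Ticam1 (8.98), Tlr2 (6.67), Tlr3 (4.39), Wdfy1 (3.89), Tlr4 (3.79) and Ticam2 (1.61). Neighbours were compared by a two-sided exact sign-flip permutation test of the 10 differences within libraries, adjusted over 9 pairs, for which the smallest unadjusted p possible is 0.00195. In 5 of the 9 pairs the levels differed. Tlr9 was above Tlr7, Ticam1 above Tlr2, Tlr2 above Tlr3 and Tlr4 above Ticam2 in 10 of 10 libraries (adjusted exact p = 0.0044 each), and Tlr7 was above Ticam1 in 9 of 10 (adjusted exact p = 0.0070). Differences were not detected between Myd88 and Irf3 (adjusted exact p = 0.18) or between Irf3 and Tlr9 (0.31). No test is given for the pairs of Wdfy1 with Tlr3 and Tlr4, since they contain the values by which Wdfy1 was chosen and join groups that lie on different sides of its partners. Within groups, Wdfy1 was 9th of 10 in WT and 7th in DUSP6 KO.

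Beyond these 10 genes, the pathway showed no called gene. Calls were rare over all genes (0.0376% higher and 0.0329% lower), so their absence from short lists says little about the pathway. Lists by role held 88 other genes, of which 84 were tested. Of these, 2 passed an unadjusted p of 0.05 as higher and 4 as lower, 7.14% together, beside the 2.62% and 3.03% of all genes. Their median log2 fold change was -0.052, and the smallest adjusted p was 0.59 (limma). None of the genes below is called, and the values are given as measured.

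Among the 7 other Toll-like receptors, Tlr8, a second single-stranded RNA receptor, had a log2 fold change of -0.28 and Tlr12, a receptor for profilin of parasites, 0.22, and Tlr1, which pairs with TLR2, was the highest at 23.3 FPKM on average. Among the 12 accessory proteins, Tril, which assists TLR3 and TLR4, averaged 1.07 ± 0.51 FPKM in the DUSP6 KO spleens against 0.564 ± 0.112 FPKM in the WT spleens (SD), with 4 of 5 DUSP6 KO values above all WT values. Its log2 fold change was 0.72, past an unadjusted p of 0.05 but not called (limma, adjusted p = 0.85). Hsp90b1, the chaperone that folds most Toll-like receptors, was at -0.30, also past the unadjusted line (limma, adjusted p = 0.75), and Unc93b1, which carries the endosomal receptors out of the endoplasmic reticulum, was at 139 ± 21 FPKM and 143 ± 28 FPKM.

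In the MyD88 arm, 0 of 16 genes passed an unadjusted limma p of 0.05, beside 2.62% of all genes as higher and 3.03% as lower. Tirap, the bridge from TLR2 and TLR4 to MyD88, was at -0.25, Chuk, a kinase of the NF-kB pathway, at -0.11, and Irf5 was the highest at 48.4 FPKM. In the TRIF arm, which includes Irf3, Tank, a scaffold of the kinase TBK1, ranged from 10.3 to 11.3 FPKM in DUSP6 KO spleens and from 11.3 to 12.7 FPKM in WT spleens, a log2 fold change of -0.16 that passed the unadjusted line (limma, adjusted p = 0.80), and Azi2, a second TBK1 scaffold, was at -0.10. Among the 12 negative regulators, Irak3, which restrains MyD88 signalling, was at -0.30 and Tnip1, which restrains NF-kB, at 0.25, both past the unadjusted line and neither called (limma, adjusted p = 0.79 for each). Nfkbia, the NF-kB inhibitor, was the highest of them and was at 92.6 ± 20.97 FPKM and 90.3 ± 13.4 FPKM.

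Of 12 NF-kB target genes, 9 were tested. Ccl3, a chemokine of myeloid cells, had the most negative log2 fold change of the pathway genes, -1.09, past the unadjusted line (limma, adjusted p = 0.59), with 1.13 ± 0.54 FPKM in the DUSP6 KO spleens against 2.42 ± 0.79 FPKM in the WT spleens. Ccl4, its close relative, was at -0.53, and Icam1 was at 0.15. Il6 (0 to 11 reads), Cxcl2 (0 to 10) and Ptgs2 (1 to 10) were under the filter and were not tested. The summed neutrophil markers were 564 to 1940 FPKM in DUSP6 KO and 1123 to 4791 FPKM in WT, with 10 of 10 markers negative (median log2 fold change -1.07). Of these, 6 had an unadjusted limma p under 0.05 and 0 were called, beside 3.03% and 0.0329% of all genes as lower. The markers share the libraries, so their common sign is not 10 separate observations. Their part in the Ccl3 values was not tested.

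Of 12 IRF3 and interferon target genes, 11 were tested and 0 passed an unadjusted limma p of 0.05, with a median log2 fold change of -0.14. Over all genes 2.62% passed it as higher and 3.03% as lower, so a 0 in this list, or in the sensors below, says little. Oasl1 was at -0.20, Usp18 at -0.16 and the chemokine Ccl5, the highest, at -0.16. Ifnb1, the interferon beta gene that IRF3 activates, had 0 reads in all 10 libraries. Among 8 cytosolic nucleic acid sensors 0 passed an unadjusted limma p of 0.05, and Zbp1 was at -0.32, Ddx58 (RIG-I) at -0.21 and Tmem173 (STING) at -0.0025.

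**Figure D4:**
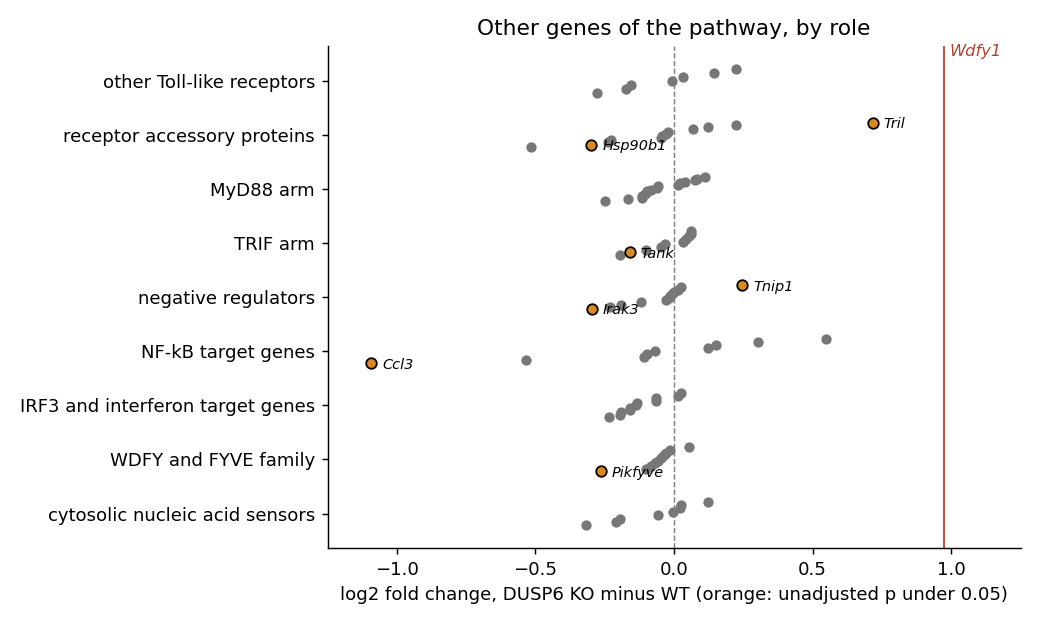
Log2 fold change, DUSP6 KO minus WT, of every other tested gene of the 9 role lists. Each point is a gene in a list, and Irf7 is in both the MyD88 arm and the IRF3 target list. Points of an unadjusted limma p under 0.05 are orange and named, and Wdfy1 (0.97, red line) is given for scale. None of the points reaches the line, and the most positive, Tril, is at 0.72. The most negative, Ccl3, is at -1.09, which is larger in size than the value of Wdfy1.

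The related genes of the family gave no other call. Of 12 genes with WDFY or FYVE names or domains, 11 were tested and 1 was called, Wdfy1 itself. Over all genes, 0.0376% were called higher and 0.0329% lower. Pikfyve, a kinase that makes an endosomal phosphoinositide, averaged 3.32 ± 0.40 FPKM in the DUSP6 KO spleens against 3.99 ± 0.24 FPKM in the WT spleens, a log2 fold change of -0.26 past the unadjusted line (limma, adjusted p = 0.79). Zfyve1 was at 0.054, and Wdfy4, which takes part in cross-presentation by dendritic cells, was the highest at 40.1 FPKM and at -0.10.

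The neighbours of Wdfy1 within 0.5 Mb gave no call. Of 15 genes whose lowest coordinate lies within 0.5 Mb of that of Wdfy1, 6 were tested. Of these, 0 were called, beside 0.0376% of all genes called higher and 0.0329% lower. Their log2 fold changes ran from -0.37 to 0.44. An unadjusted limma p under 0.05 was found in 0 of them, beside 2.62% of all genes as higher and 3.03% as lower. Mrpl44, a mitochondrial ribosomal protein gene whose exons share 126 bases with Wdfy1 on the opposite strand (1.94% of the Wdfy1 exon bases), averaged 15.6 ± 1.6 FPKM in the DUSP6 KO spleens against 16.6 ± 2.0 FPKM in the WT spleens, a log2 fold change of -0.086. Of the 14 Wdfy1 transcripts in the annotation, 1 reaches Mrpl44, and the table does not separate transcripts. Serpine2, a protease inhibitor gene, was at -0.29, Ap1s3 at -0.049 and Gm5529 at 0.23, while Gm37886 (0.44) and Fam124b (-0.37) were below 0.6 FPKM in every library.

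**Figure D5:**
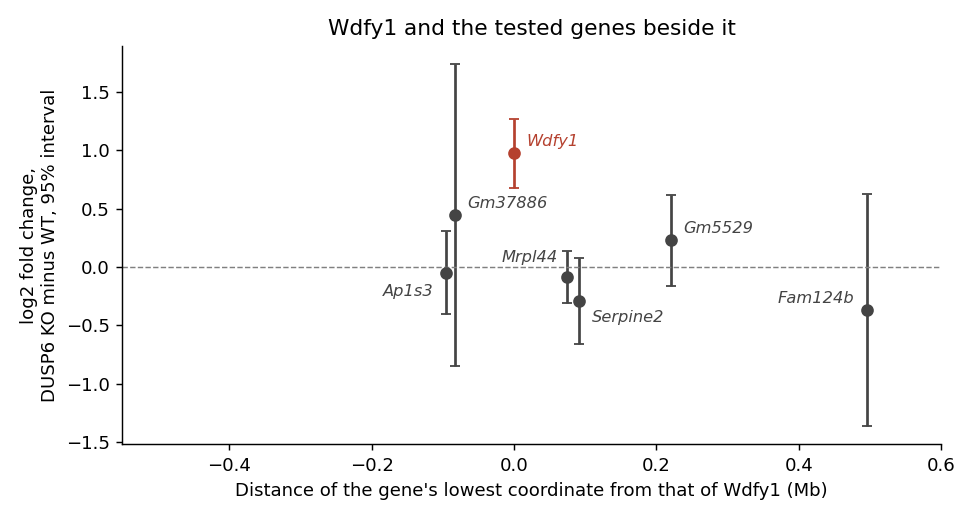
Log2 fold change, DUSP6 KO minus WT, with 95% limma intervals, of Wdfy1 (red) and of the 6 tested genes within 0.5 Mb, against the distance between lowest coordinates in Mb. The intervals of the 6 neighbours include 0.

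The genes whose pattern over the 10 libraries was most like that of Wdfy1 were Serpinb8, Epha4, Ift57, Timd4 and Adam23. Likeness was the root-mean-square difference between log2(FPKM + 0.1) values centred on each gene's own mean, and it was 0.20, 0.23, 0.25, 0.26 and 0.26 for these genes beside a median of 0.63 over 21295 genes. Serpinb8, a serpin gene, averaged 1.93 ± 0.37 FPKM in the DUSP6 KO spleens against 1.02 ± 0.25 FPKM in the WT spleens, and Timd4, a phosphatidylserine receptor of resident macrophages, was at 56.3 ± 14.3 FPKM and 31.5 ± 4.1 FPKM, without overlap between groups in either. Ift57 was at 5.72 ± 1.33 FPKM and 3.34 ± 0.71 FPKM, Adam23 at 2.87 ± 0.34 FPKM and 1.83 ± 0.42 FPKM, and Epha4 at 0.171 ± 0.052 FPKM and 0.0573 ± 0.0277 FPKM. These genes were picked for likeness to a gene that differs, so their differences are given without a test. Serpinb8 (chr1:107590006-107610484), Epha4 (chr1:77367185-77515088) and Adam23 (chr1:63445891-63596276) lie on chromosome 1 with Wdfy1, which holds 6.39% of the genes tested, and this was noted after their values were seen. Epha4 passed the filter of 0.1 FPKM only through its DUSP6 KO values, so its place among these genes rests on them.

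By the same measure, the nearest of the receptors, adaptors and Irf3 was Irf3, at rank 4520 of 21295 with a distance of 0.53, followed by Ticam2 at rank 5848. Tlr2, Tlr3, Tlr7, Myd88, Tlr4 and Tlr9 lay between ranks 9164 and 10705, around the middle of the order, and Ticam1 was the farthest of the 9, at rank 12402 with 0.68. These distances contain the difference by which Wdfy1 was chosen, and each gene's own spread adds to them. The ranks of the 9 genes are therefore not read as likeness to Wdfy1, and no test is given.

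The marker lists gave the cell make-up beside which these values stand. The markers of spleen cell types were present in every library, with summed monocyte and macrophage markers at 1749 to 2359 FPKM in DUSP6 KO and 1636 to 1952 FPKM in WT, conventional dendritic cell markers at 53.2 to 74.4 FPKM and 48.1 to 72.5 FPKM, and T cell markers at 115 to 236 FPKM and 131 to 200 FPKM. Plasmacytoid dendritic cell markers were at 160 to 248 FPKM and 166 to 549 FPKM. The 549 FPKM was in WT 67, the library highest in pancreas transcripts, and the other WT libraries were at 166 to 229 FPKM. Erythroid markers were at 10481 to 53353 FPKM and 12073 to 26517 FPKM. Of the 11 monocyte and macrophage markers, 6 had a positive and 5 a negative log2 fold change, from -0.53 to 0.38 with a median of 0.024, and 2 passed the unadjusted line as higher, 2 as lower and 0 were called. Over all genes, 2.62% passed that line as higher and 3.03% as lower. The most negative log2 fold change of the list, -0.53, was larger in size than that of any higher marker. The 2 with the smallest unadjusted limma p of the list were Csf1r and Adgre1, both higher. They were at 0.38 each with no overlap between groups (limma, adjusted p = 0.56 and 0.59). Of all genes tested, 0.549% had no overlap in that direction. Lyz2, the marker with the highest level, was at 0.16 with overlap, so the list as a whole had no common direction. The part of cell make-up in the Wdfy1 values was not tested.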

How the data were processed

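The authors aligned paired-end reads to the reference genome, counted them per gene with featureCounts 1.5.0-p3 (version from the submitters' processing notes) and deposited FPKM values. The notes name a human build, but the gene IDs and coordinates are of mouse, and 98.26% of the 54409 genes also in GENCODE M21 have identical coordinates there (GRCm38). Strand use in counting is not given in the sources used here.

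FPKM multiplied by gene length gave whole reads in each library (100% of values within 0.05 of a read), in all 14990474 to 19822673 reads a library. The depth to which the FPKM were scaled was 0.949 (DUSP6 KO 73) to 1.12 (DUSP6 KO 21) times these reads. The study tested its counts with a count model. Here log2(FPKM + 0.1) was tested with limma 3.58.1 (R 4.3.3; lmFit and trended eBayes) for the 21296 genes averaging 0.1 FPKM or more and Benjamini-Hochberg adjustment, with calls at an adjusted p of 0.05 or less. The script was tested on simulated data. Replicates differed from each other by a chi-square per gene of 13.4 to 151 over 20 pairs within groups, so each library counted as 1 mouse. Where 2 rows shared a symbol, the row with the higher mean was used.

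The members and lists were chosen with earlier results of these data known. Genes named from each pathway list are those called, otherwise the 2 with the smallest p and the 1 with the highest mean FPKM. The 5 genes most like Wdfy1 and the genes within 0.5 Mb were named by rule, and Csf1r, Adgre1 and the genes under the filter by their values. Copies were sought with blastn 2.17.0, statistics used scipy 1.17.1, and figures were drawn with matplotlib 3.10.9 in Python 3.11.15. Alternatives tried were other pseudocounts (1, 0.01), other filters (mean FPKM of 1, or none), untrended or robust eBayes, other scalings (quantiles, medians, or totals less 748 genes of immunoglobulins, antigen receptors, globins and mitochondria), voom on the recovered reads, leaving out each library in turn and, chosen after seeing the data, leaving out WT 65 and WT 67 together.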

Additional observations from a re-analysis of the deposited data

Results flagged for a closer look

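Tlr3 in DUSP6 KO 21 was at 6.31 FPKM, while the other 4 DUSP6 KO spleens were at 3.71 to 3.98 FPKM, so this library stood apart from its group by 0.893 of the group's range, past Dixon's 95% critical value. It was the 1 flag in 20 groups of 5 examined, and chance flags about 1 in 20.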

How the results depend on the processing

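Wdfy1 was higher in DUSP6 KO in all 21 alternatives, with a log2 fold change of 0.78 to 1.05. The adjusted limma p stayed at 0.05 or less in 13 of them, was 0.055 with eBayes without trend, and was 0.021 to 0.12 when a library was left out. These refits reuse the libraries by which Wdfy1 was chosen. They describe how its value depends on the processing and support nothing further. The signs of 3 small differences changed. Without WT 65 and WT 67, Tlr7 was at 0.042 and Tlr9 at 0.077, and with a library left out Tlr9 ran from -0.21 to 0.056 and Irf3 from -0.046 to 0.12. None of the 9 genes beside Wdfy1 was called in any alternative. The count of all genes called higher (8) was 6 to 21 with a library left out, and 21 without DUSP6 KO 21. The count called lower (7) was 4 with a minimum mean FPKM of 1 and 4 to 13 with a library left out, 13 without DUSP6 KO 21 and 4 without WT 83. The causes were not tested. No paired analysis was made, because the labels give no pairing of DUSP6 KO with WT mice. Ticam2 had the fewest reads of the 10 genes, 86 to 162 a library.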
